A study of Mus musculus with 18 samples.

Results

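Mitochondrial ribosomal protein genes were defined as the genes whose symbol in the array annotation was Mrpl or Mrps followed by digits, with or without a letter. Of 22180 mouse genes that had a row of their own on the array, 71 met this definition, 43 with an Mrpl symbol and 28 with an Mrps symbol. Where a gene had several rows, the row with the highest mean signal over the 18 arrays was used. Which genes belonged was set by names alone, and measured signal was used only to choose among the rows of a gene. Another 7 genes with such symbols (Mrpl30, Mrpl33, Mrpl41, Mrpl43, Mrpl44, Mrpl53 and Mrps6) appeared only on rows shared with another gene and were not counted.

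The mitochondrial ribosome translates the few messages encoded by mitochondrial DNA, all of which specify subunits of the respiratory chain and of ATP synthase. Its proteins are encoded in the nucleus, made in the cytosol and imported, and they join a large and a small subunit around RNAs transcribed inside the organelle. Some of these proteins descend from bacterial ribosomal proteins and others were added during the evolution of mitochondria. Adipocyte differentiation is known for a rise in mitochondrial content, and in 3T3-L1 cells it begins with cell divisions called mitotic clonal expansion. SIRT6 is a nuclear NAD+-dependent deacetylase that acts on histones.

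The cells were 3T3-L1, an established mouse preadipocyte line, either control (WT) or infected with a lentivirus carrying a short hairpin RNA against Sirt6 (SIRT6 KD). Adipogenesis was induced with a cocktail of isobutylmethylxanthine, dexamethasone and insulin, and RNA was taken at 0, 20 and 40 hr. For each of the 6 groups there were 3 arrays. This setting and the unit hr come from the study's methods. GEO's labels give WT or SIRT6KD and T0, T20 or T40, with no unit of time, and they speak of mice and of an inhibitor in place of cells and induction. All later samples of both genotypes were treated, so time and treatment cannot be told apart. Values were log2 signals, and every fold change below is a difference of log2 group means. A gene is said to have risen or fallen where limma's test gave an adjusted p under 0.05 over all 23521 array rows with 1 symbol. The study's methods give at least 3 biological replicates for its cell culture work. The labels do not say whether the 3 arrays of a group came from separate cultures. Each p-value of limma sets a difference of means against the spread between arrays within the 6 groups. Whether that is a spread between cultures is not known.

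The samples carried the markers of the line. All 7 preadipocyte and fibroblast markers measured and 7 of 8 adipocyte markers had a mean signal above the receptor level, which is the 95th percentile of olfactory and vomeronasal receptor rows (6.55) and serves as a background. The defining markers of endothelial cells were below it (0 of 5), and 1 of 5 macrophage and 1 of 4 epithelial markers were above it. The mean signal of the adipocyte list was 8.32 at 0 hr and 9.28 at 40 hr in WT cells, and 8.28 and 9.15 in SIRT6 KD cells. Sirt6 itself was lower in SIRT6 KD than in WT cells by 0.18, 0.30 and 0.22 on the log2 scale at 0, 20 and 40 hr, and these differences did not pass limma's test (adjusted p = 0.768, 0.617 and 0.479). Two-sided exact permutation tests of 3 against 3 arrays gave p = 0.3, 0.3 and 0.1, where 0.1 is the smallest value possible. The knockdown was not called from the array signal of Sirt6 at any time. Arrays of a group correlated at 0.9905 or above, and 5 of 18 arrays correlated more with the other genotype at the same time than with their own group. These were all 3 SIRT6 KD arrays at 20 hr, SIRT6 KD replicate 1 at 40 hr and WT replicate 3 at 0 hr.

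Nuclear respiratory factor 1 (NRF1), the ETS factor GABP and YY1 are known to bind promoters of genes for mitochondrial proteins. RefSeq promoter windows (250 bases before to 50 after the start, build GRCm38.p6) were matched by gene ID for 62 of the 71 genes, with 68 windows. Each window was searched on both strands for 6 exact motifs: NRF1 (CGCATGCG), ETS (CCGGAAG), YY1 (AAGATGGC), E-box (CACGTG), Sp1 GC box (GGGCGG) and TATA box (TATAAA). The last 3 letters of the ETS motif are the first 3 of the YY1 motif. Over all 6 motifs, 2 of the 68 windows held overlapping sites. These were windows of Mrpl17 and Mrps16, where an ETS motif overlapped a GC box. The ETS motif was in the promoter of 23 of 62 genes (37.1%), against 9.93% of all 27025 genes of the promoter table. YY1 motifs were found in 12 (19.4%, against 3.19%) and NRF1 motifs in 7 (11.3%, against 2.07%). The GC box was in 51.6% against 38.2%, the E-box in 8.06% against 8.09% and the TATA box in 8.06% against 15.7%. The windows were also richer in G and C, with a median of 58.5% against 52.7% over all windows. These are matches of letters and not measured binding.

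A few of these windows are given here: those of 4 genes with large rises (Mrpl49, Mrpl51, Mrpl57 and Mrpl32), of the gene with the lowest difference between genotypes at 40 hr (Mrps23), of a gene with both an ETS and a YY1 motif (Mrps18a), and of a gene whose start region is shared with another of the set (Mrps11). Capitals mark the NRF1, ETS, YY1 and E-box motifs on either strand, and each window is read 5′ to 3′ on the strand of its gene. Mrpl49 lies on the minus strand (chr19:6057706-6058005), as does Mrpl32 (chr13:14612988-14613287), and Mrpl51 (chr6:125191950-125192249), Mrpl57 (chr14:57825989-57826288), Mrps23 (chr11:88204138-88204437), Mrps18a (chr17:46110754-46111053) and Mrps11 (chr7:78782881-78783180) lie on the plus strand.
Mrpl49: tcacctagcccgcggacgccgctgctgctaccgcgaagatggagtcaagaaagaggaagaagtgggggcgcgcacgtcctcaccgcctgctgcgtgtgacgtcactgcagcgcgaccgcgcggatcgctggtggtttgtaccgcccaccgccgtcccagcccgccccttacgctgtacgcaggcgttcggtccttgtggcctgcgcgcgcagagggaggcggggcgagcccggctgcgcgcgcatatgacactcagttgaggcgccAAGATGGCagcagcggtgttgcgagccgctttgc
Mrpl32: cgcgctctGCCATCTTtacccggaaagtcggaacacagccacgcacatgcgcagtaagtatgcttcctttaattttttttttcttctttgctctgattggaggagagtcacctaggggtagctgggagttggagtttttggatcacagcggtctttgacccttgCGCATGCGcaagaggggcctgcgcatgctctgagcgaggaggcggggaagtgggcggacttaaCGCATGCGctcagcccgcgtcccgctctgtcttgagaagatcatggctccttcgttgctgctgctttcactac
Mrpl51: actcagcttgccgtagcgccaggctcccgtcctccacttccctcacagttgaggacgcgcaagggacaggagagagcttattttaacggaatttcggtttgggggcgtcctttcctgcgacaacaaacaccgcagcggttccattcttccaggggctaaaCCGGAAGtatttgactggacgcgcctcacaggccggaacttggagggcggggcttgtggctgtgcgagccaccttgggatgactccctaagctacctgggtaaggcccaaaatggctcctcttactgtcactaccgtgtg
Mrpl57: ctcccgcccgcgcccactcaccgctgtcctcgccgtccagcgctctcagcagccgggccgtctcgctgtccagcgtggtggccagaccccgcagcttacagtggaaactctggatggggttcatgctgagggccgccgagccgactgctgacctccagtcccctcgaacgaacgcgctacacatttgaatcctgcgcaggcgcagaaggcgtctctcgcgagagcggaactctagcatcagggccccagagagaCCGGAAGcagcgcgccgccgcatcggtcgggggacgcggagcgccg
Mrps23: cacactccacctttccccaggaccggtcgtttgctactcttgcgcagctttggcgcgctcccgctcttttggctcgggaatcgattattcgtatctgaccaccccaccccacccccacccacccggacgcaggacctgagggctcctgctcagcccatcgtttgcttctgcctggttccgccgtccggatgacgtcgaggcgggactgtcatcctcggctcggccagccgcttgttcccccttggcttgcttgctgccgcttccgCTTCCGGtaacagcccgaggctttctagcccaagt
Mrps18a: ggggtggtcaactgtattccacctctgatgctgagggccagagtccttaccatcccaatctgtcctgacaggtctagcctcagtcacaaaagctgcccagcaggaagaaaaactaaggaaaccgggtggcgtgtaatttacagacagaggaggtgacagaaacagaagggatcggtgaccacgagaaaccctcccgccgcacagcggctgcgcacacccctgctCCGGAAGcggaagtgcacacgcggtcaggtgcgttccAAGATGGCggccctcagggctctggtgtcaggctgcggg
Mrps11: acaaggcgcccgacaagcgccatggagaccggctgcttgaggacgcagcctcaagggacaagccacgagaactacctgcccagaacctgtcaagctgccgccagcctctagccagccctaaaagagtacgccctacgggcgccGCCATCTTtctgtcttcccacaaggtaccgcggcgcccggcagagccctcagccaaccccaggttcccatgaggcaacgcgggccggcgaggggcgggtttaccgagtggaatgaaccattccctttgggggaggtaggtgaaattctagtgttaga
The Mrpl49 window holds 1 YY1 motif just past the start, and the Mrpl32 window holds 2 NRF1 motifs and 1 YY1 motif. Mrpl51, Mrpl57 and Mrps23 have 1 ETS motif each, and Mrps18a has an ETS and a YY1 motif. The start of Mrps11 lies 42 bases from that of Mrpl46 on the other strand, with a YY1 motif in the window.

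In WT cells, 44 of the 71 genes rose between 0 and 20 hr and 0 fell. This is 62% of them, against 14.1% of all rows higher and 11.7% lower in that comparison, and against 24.7% higher among rows above the receptor level. The median change of the 71 genes was 0.40, and that of all rows was 0.002. At 40 hr, 41 genes stood above their 0 hr level (57.7%; all rows 12.2% higher and 10.6% lower; rows above the receptor level 21.1% higher) and 1 below it, with a median of 0.32. In SIRT6 KD cells, 39 genes rose by 20 hr (54.9%; all rows 13.2% higher and 12.2% lower; rows above the receptor level 21.4% higher) and 1 fell, with a median of 0.30. At 40 hr, 19 genes were called higher in SIRT6 KD cells (26.8%; all rows 10.7% higher and 12.5% lower; rows above the receptor level 15.6% higher) and 2 lower, with a median of 0.14. The RNA came from whole cultures, so a change in the share of cells of a kind and a change in RNA per cell cannot be told apart.

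The rises were modest in size. The largest was 1.91-fold. In WT cells 12 of the 71 genes at 20 hr and 10 at 40 hr were called higher with a fold above 1.5, beside 4.87% and 3.77% of all rows. In SIRT6 KD cells the counts were 6 and 0, beside 4% and 2.55% of all rows. These shares were not computed for rows above the receptor level. Averaged over the 71 genes, the signal on the WT arrays was 8.17, 8.16 and 8.25 at 0 hr, 8.54, 8.56 and 8.56 at 20 hr, and 8.50, 8.57 and 8.44 at 40 hr. The SIRT6 KD arrays gave 8.18, 8.26 and 8.22 at 0 hr, 8.47, 8.58 and 8.48 at 20 hr, and 8.40, 8.28 and 8.42 at 40 hr. All arrays of both later times were above all 0 hr arrays of the same genotype, and at 40 hr the 3 SIRT6 KD arrays lay below the 3 WT arrays.

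**Figure D1:**
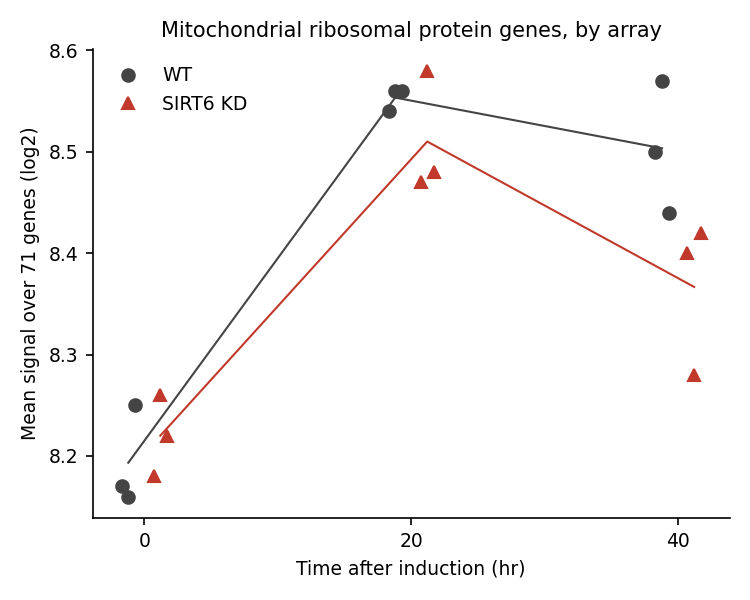
Mean log2 signal over the 71 mitochondrial ribosomal protein genes on each array (y) against hours after induction (x), with grey circles for WT, red triangles for SIRT6 KD, and lines through the means of 3 arrays. The WT arrays sit between 8.16 and 8.25 at 0 hr and between 8.54 and 8.56 at 20 hr; at 40 hr the SIRT6 KD arrays (8.28 to 8.42) lie below the WT arrays (8.44 to 8.57).

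The 16 genes that rose in all 4 comparisons with 0 hr were Mrpl2, Mrpl4, Mrpl15, Mrpl17, Mrpl38, Mrpl49, Mrpl50, Mrpl57, Mrps2, Mrps5, Mrps7, Mrps17, Mrps18b, Mrps25, Mrps26 and Mrps34. In all, 49 genes rose in at least 1 of these comparisons and 20 were called in none. Those 20 were Mrpl1, Mrpl3, Mrpl10, Mrpl24, Mrpl27, Mrpl52, Mrpl58, Mrps9, Mrps12, Mrps14, Mrps15, Mrps16, Mrps18c, Mrps21, Mrps22, Mrps28, Mrps30, Mrps33, Mrps35 and Mrps36. The other 2, Mrpl48 and Mrpl54, were called only lower. Mrps14 and Mrps36, with mean signals of 6.51 and 5.61, were the 2 genes below the receptor level. The highest mean signal was that of Mrpl42 (10.77), which rose by 0.49 in WT and by 0.40 in SIRT6 KD cells at 20 hr. Mrps36, the lowest, is now known as a subunit of the 2-oxoglutarate dehydrogenase complex.

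**Figure D2:**
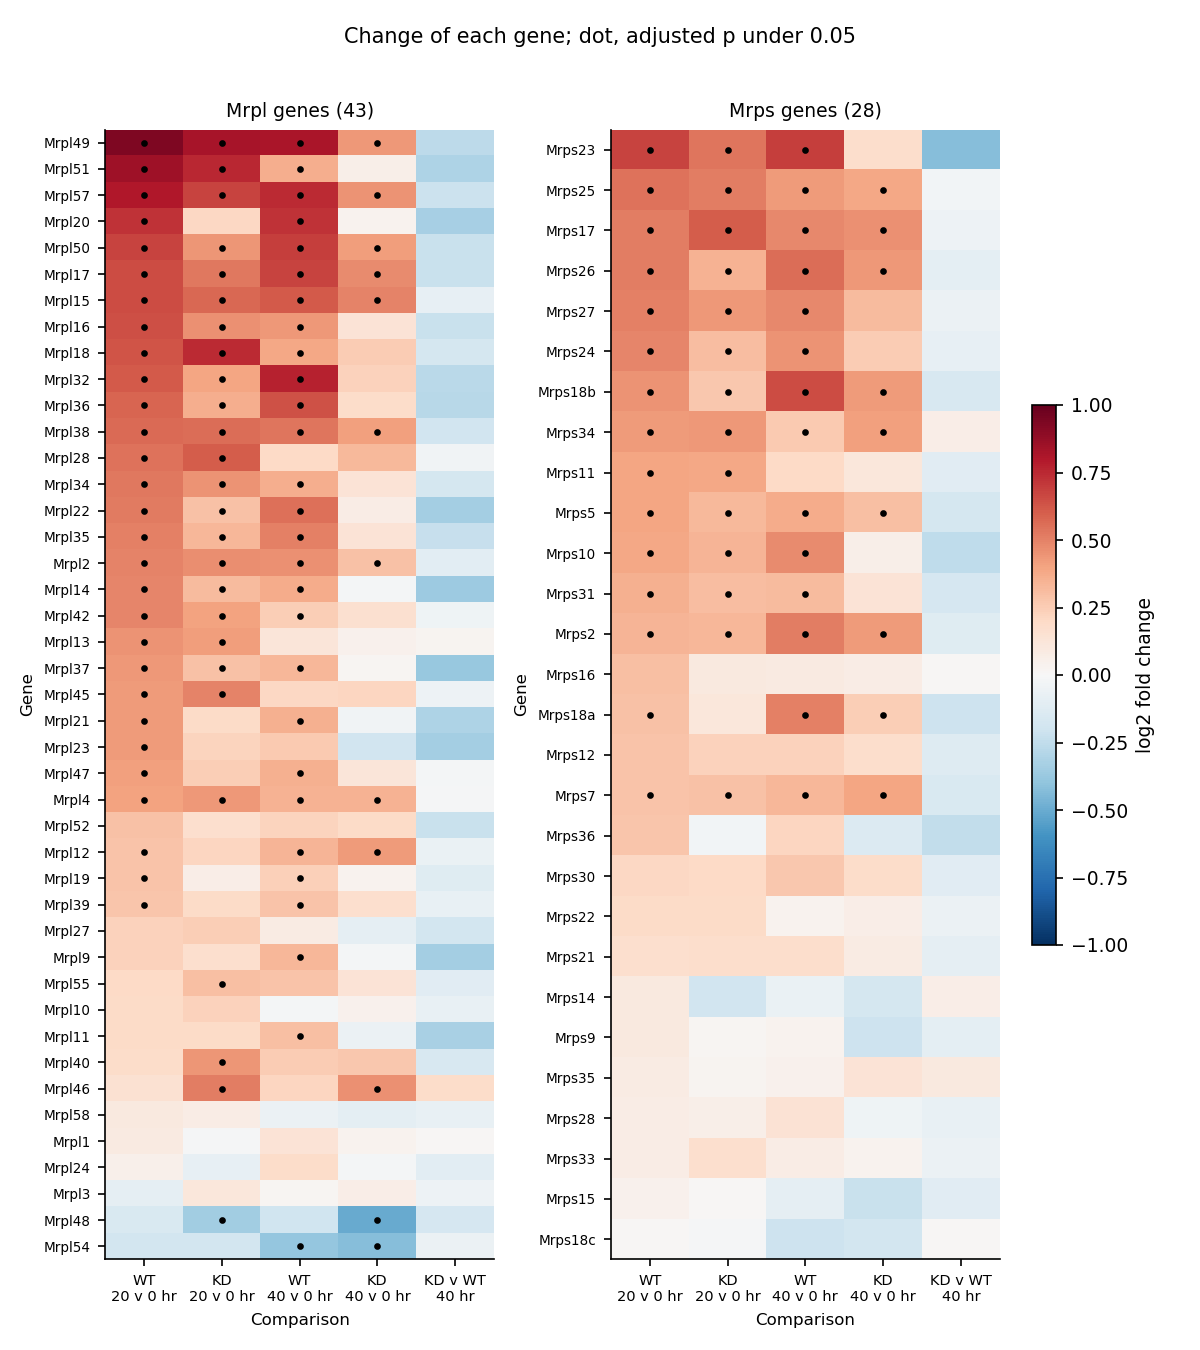
Heat maps of the log2 fold change of each of the 43 Mrpl and 28 Mrps genes (rows, ordered by the WT change at 20 hr) in 4 comparisons with 0 hr and for SIRT6 KD against WT at 40 hr (columns); red is higher, blue is lower, and a dot marks an adjusted p under 0.05. Called genes number 44 in WT cells at 20 hr, 40 in SIRT6 KD cells at 20 hr, 42 in WT cells at 40 hr, 21 in SIRT6 KD cells at 40 hr and 0 between genotypes.

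Among proteins of the large subunit, Mrpl49 had the largest rise. Its signal in WT cells was 8.15, 8.56 and 8.63 at 0 hr, 9.23, 9.55 and 9.37 at 20 hr, and 9.24, 9.39 and 9.17 at 40 hr. In SIRT6 KD cells it was 8.48, 8.72 and 8.52, then 9.28, 9.52 and 9.39, then 9.28, 8.77 and 8.98. Every array after induction was above every 0 hr array of its genotype. The rise was 0.93 (SE 0.13, adjusted p = 2.46e-05) in WT and 0.82 (adjusted p = 1.06e-04) in SIRT6 KD cells at 20 hr, and 0.82 and 0.43 at 40 hr (adjusted p = 1.20e-04 and 0.0238).

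Mrpl51, another protein of the large subunit, rose and then fell back. The WT arrays read 8.85, 8.81 and 8.93 at 0 hr, 9.67, 9.71 and 9.76 at 20 hr, and 9.29, 9.29 and 9.11 at 40 hr. The SIRT6 KD arrays read 8.97, 8.79 and 8.82, then 9.58, 9.77 and 9.49, then 8.97, 8.87 and 8.93. The 20 hr arrays did not overlap those of either other time in the same genotype. The change at 20 hr was 0.85 (SE 0.083, adjusted p = 1.86e-07) in WT and 0.75 (adjusted p = 8.98e-07) in SIRT6 KD cells. From 20 to 40 hr Mrpl51 fell by 0.48 in WT (adjusted p = 4.40e-04) and by 0.69 in SIRT6 KD cells (adjusted p = 6.06e-06). At 40 hr it was still 0.37 above 0 hr in WT cells (adjusted p = 0.00247), while SIRT6 KD cells differed from their 0 hr level by 0.06 (adjusted p = 0.649).

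Mrpl57, earlier named Mrp63, had 0 hr signals within 7.34 and 7.37 in WT cells and read 8.23, 8.23 and 8.03 at 20 hr and 8.13, 8.18 and 8.02 at 40 hr. SIRT6 KD cells gave 7.39, 7.48 and 7.46, then 8.02, 8.33 and 8.02, then 7.90, 7.81 and 7.98. It rose by 0.80 and 0.75 in WT cells and by 0.68 and 0.45 in SIRT6 KD cells at 20 and 40 hr (adjusted p from 9.36e-07 to 7.98e-04). Mrpl32, a protein whose mature form is released by a mitochondrial protease, reached its highest mean in WT cells at 40 hr. Its WT signal was 8.31, 8.51 and 8.69 at 0 hr and 9.23, 9.39 and 9.20 at 40 hr, a rise of 0.77 (SE 0.1, adjusted p = 8.16e-06). In SIRT6 KD cells the same arrays read 8.72, 8.68 and 8.92 against 9.10, 8.93 and 8.98, a difference of 0.23 (adjusted p = 0.108). At 20 hr Mrpl32 rose in both genotypes, by 0.61 in WT and by 0.39 in SIRT6 KD cells.

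Other large subunit genes among the 8 genes with the largest rises of either genotype over both times were Mrpl18 (0.63 in WT and 0.75 in SIRT6 KD cells at 20 hr), Mrpl20 (0.72 and 0.21), Mrpl50 (0.68 and 0.44), Mrpl17 (0.65 and 0.53), Mrpl15 (0.65 and 0.57), Mrpl38 (0.56 and 0.56) and Mrpl28 (0.55 and 0.60). Mrpl16 (0.64 and 0.45) and Mrpl36 (0.59 and 0.36) also rose at 20 hr. All of these passed the test in both genotypes at 20 hr except Mrpl20 in SIRT6 KD cells (adjusted p = 0.367). Mrpl20, related to a bacterial protein that binds early during ribosome assembly, gave 6.28, 6.20 and 6.44 at 0 hr and 6.84, 7.01 and 7.24 at 20 hr in WT cells. Its SIRT6 KD arrays overlapped between these times, with 6.39, 6.77 and 6.83 at 0 hr and 6.84, 7.18 and 6.59 at 20 hr. The 0 hr signals of Mrpl20 in WT cells were below the receptor level of 6.55.

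Mrpl48 and Mrpl54 were the exceptions, called lower. Mrpl48 read 8.21 on all 3 SIRT6 KD arrays at 0 hr, 7.76, 7.99 and 7.83 at 20 hr, and 7.61, 7.82 and 7.69 at 40 hr. It fell by 0.35 (SE 0.095, adjusted p = 0.00926) and by 0.50 (adjusted p = 5.32e-04) in SIRT6 KD cells, and its changes in WT cells were −0.15 and −0.20 (adjusted p = 0.303 and 0.166). Mrpl54 fell by 0.39 in WT and by 0.43 in SIRT6 KD cells at 40 hr (adjusted p = 0.0427 and 0.0258). These 2 calls were near the threshold. The WT call was lost without replicate 1 or 2 at 0 hr, or replicate 1 or 3 at 40 hr (−0.39 to −0.32), and the SIRT6 KD call without replicate 3 at 0 hr, or replicate 1 or 2 at 40 hr (−0.42 to −0.28).

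**Figure D3:**
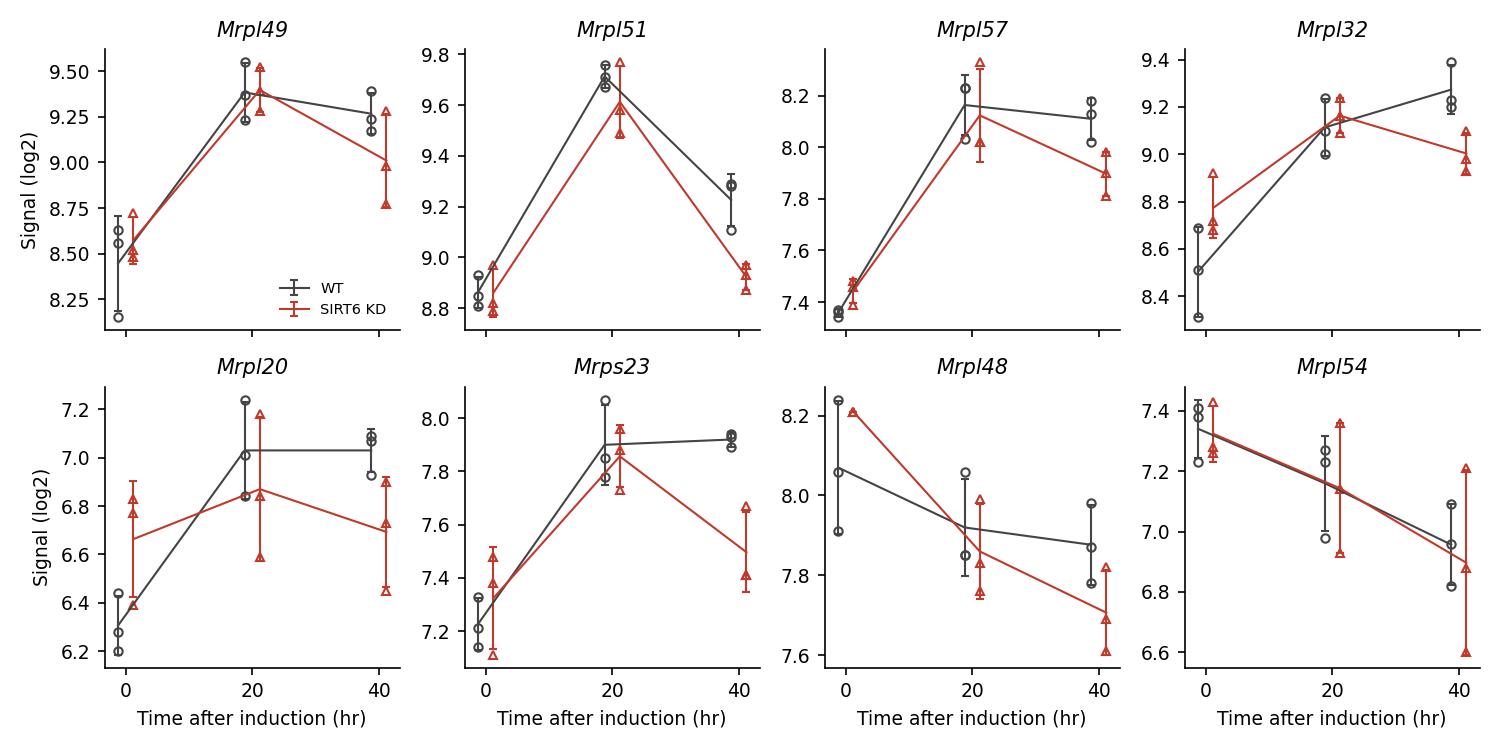
Log2 signal (y) against hours after induction (x) of 8 genes; open symbols are single arrays, lines join means of 3 arrays, and bars are SD, in grey circles for WT and red triangles for SIRT6 KD. Mrpl49, Mrpl51 and Mrpl57 rise in both genotypes by 20 hr, Mrps23 at 40 hr lies between 7.89 and 7.94 in WT and between 7.41 and 7.67 in SIRT6 KD cells, and Mrpl48 and Mrpl54 have lower means at 40 hr than at 0 hr.

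Genes with Mrpl and Mrps symbols were mostly called in the same direction. In WT cells 15 of 28 rose by 20 hr (median 0.30), against 29 of 43 Mrpl genes (median 0.43), and 14 and 27 were higher at 40 hr. In SIRT6 KD cells 14 Mrps and 25 Mrpl genes rose by 20 hr (medians 0.25 and 0.31), and 9 and 10 were higher at 40 hr (medians 0.16 and 0.14). The difference between both sets was not tested. The symbols do not follow the subunits throughout, since Mrps18a and Mrps30 belong to the large subunit. Of 42 genes listed as the direct counterpart of a bacterial ribosomal protein 27 rose in WT cells by 20 hr (median 0.40), and of the other 29, which include the paralogs Mrps18a and Mrps18b, 17 rose (median 0.36).

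Mrps23, a small subunit protein with no bacterial relative, had the largest rise among Mrps genes in WT cells. WT cells read 7.14, 7.21 and 7.33 at 0 hr, 7.78, 7.85 and 8.07 at 20 hr, and 7.89, 7.93 and 7.94 at 40 hr. SIRT6 KD cells read 7.11, 7.38 and 7.48, then 7.73, 7.96 and 7.88, then 7.67, 7.41 and 7.41. In WT cells the 40 hr signal stayed at the 20 hr level, and in SIRT6 KD cells it went back toward the 0 hr range. The rise at 20 hr was 0.67 in WT (adjusted p = 5.83e-05) and 0.53 in SIRT6 KD cells (adjusted p = 6.76e-04). From 20 to 40 hr Mrps23 fell by 0.36 in SIRT6 KD cells (SE 0.11, adjusted p = 0.034) and differed by 0.02 in WT cells (adjusted p = 0.966). Mrps17, related to a bacterial protein that binds ribosomal RNA, rose by 0.51 and 0.60 at 20 hr in WT and SIRT6 KD cells.

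The paralogs Mrps18a, Mrps18b and Mrps18c, 3 genes related to 1 bacterial small subunit protein, did not change alike. Mrps18b rose from 9.32, 9.49 and 9.43 at 0 hr to 10.08, 10.17 and 9.95 at 40 hr in WT cells, a change of 0.66 (adjusted p = 3.89e-06), and by 0.43 in SIRT6 KD cells (adjusted p = 4.77e-04). Mrps18a rose by 0.50 and 0.25 (adjusted p = 2.26e-05 and 0.0147). Mrps18c, the one in the place of the bacterial protein, changed by −0.21 and −0.19 (adjusted p = 0.137 and 0.175).

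Mrpl46 and Mrps11 share a start region. Mrps11 rose in both genotypes at 20 hr, by 0.40 in WT and 0.39 in SIRT6 KD cells (adjusted p = 0.00208 and 0.00253). Mrpl46 read 7.17, 7.09 and 6.96 at 0 hr and 7.23, 7.14 and 7.31 at 20 hr in WT cells, a change of 0.15 (adjusted p = 0.464). In SIRT6 KD cells it rose from between 6.93 and 7.10 to 7.34, 7.69 and 7.55, by 0.51 (adjusted p = 0.00403). At 20 hr all 3 SIRT6 KD arrays were above all 3 WT arrays, but the genotypes' difference of 0.30 did not pass the test (adjusted p = 0.664).

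A gene on the other strand started within 1000 bases of 24 of the 62 genes (38.7%), against 15.8% of all 27025 genes. Leaving aside the pair of Mrpl46 and Mrps11, 22 partners were measured. In WT cells at 20 hr, 16 of the 22 mitochondrial ribosomal protein genes and 9 of the partners rose, with both rising in 6 pairs, and 1 partner fell. Of all rows 14.1% were higher and 11.7% lower in that comparison, and of rows above the receptor level 24.7% were higher. Whether the genes of a pair rose together was not tested. At the start shared with Mrpl49, Fau, which encodes a cytosolic ribosomal protein fused to a ubiquitin-like protein, changed by 0.09 (adjusted p = 0.337). Psma2, a proteasome subunit beside Mrpl32, changed by 0.19 (adjusted p = 0.0634). Partners that rose included Ska3, a kinetochore gene next to Mrpl57 (1.67, adjusted p = 1.00e-07), Ncapd2, a condensin subunit next to Mrpl51 (1.41, adjusted p = 3.60e-10), and Tcp1, a cytosolic chaperonin subunit next to Mrpl18 (0.39, adjusted p = 6.33e-04). At 40 hr Mrpl57 and Mrpl51 were still above 0 hr in WT cells (0.75 and 0.37), whereas Ska3 was at −0.30 (adjusted p = 0.203) and Ncapd2 fell by 0.30 (adjusted p = 0.0139). Eme1, an endonuclease subunit beside Mrpl27, rose by 0.79 (adjusted p = 2.42e-05) while Mrpl27 itself changed by 0.23 without passing the test. Of the 12 genes with a YY1 motif, 11 rose in WT cells by 20 hr (median 0.49, from 0.28 to 0.93), and of the 50 without it 27 rose (median 0.32). With an ETS motif 12 of 23 rose, and without it 26 of 39. These splits were not tested.

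Between 20 and 40 hr, 0 of the 71 genes rose in either genotype by limma's test (all rows 3.75% in WT and 3.73% in SIRT6 KD cells), with 2 in WT and 1 in SIRT6 KD cells higher at an unadjusted p under 0.05 (all rows 8.89% and 9.99%). The methods' analysis of variance called 1 higher in WT cells (all rows 3.74%). In WT cells 2 fell (all rows 5.25% lower), namely Mrpl51 and Mrpl13, which fell by 0.33 (adjusted p = 0.0453). In SIRT6 KD cells 9 fell (12.7%; all rows 6.55% lower): Mrpl13, Mrpl14, Mrpl16, Mrpl18, Mrpl23, Mrpl34, Mrpl51, Mrps10 and Mrps23. The medians were −0.04 and −0.15. The count of 9 was 2 without SIRT6 KD replicate 2 at 20 hr, and also 2 without SIRT6 KD replicate 2 at 40 hr, the array of its group with the lowest mean signal over the 71 genes. It was 17 where only rows above the receptor level were tested, of which 14% were called lower. The highest of the 3 time means was at 20 hr for 42 genes in WT and 56 in SIRT6 KD cells, at 40 hr for 27 and 9, and at 0 hr for 2 and 6.

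The 2 genotypes were compared at each time to ask whether the knockdown changed these genes. No member of the set passed limma's test at any time, with 0 of 71 called at 0, 20 and 40 hr against 0%, 0.0213% and 0.0935% of all rows. At an unadjusted p under 0.05, 3, 6 and 18 of the 71 genes differed, beside 6.91%, 6.65% and 11% of all rows, so that the counts at 0 and 20 hr were near the share of all rows. At 0 hr the median difference was 0.03, and 29 of 71 genes lay below 0, beside 52.4% of all rows and 45.3% of rows above the receptor level. At 20 hr the median was −0.04, with 50 below 0, beside 52.6% of all rows and 57.1% of rows above the receptor level. Without SIRT6 KD replicate 2 or 1 at that time the median was −0.097 or −0.006.

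At 40 hr, 63 of the 71 genes had a lower mean in SIRT6 KD than in WT cells. The median difference was −0.12, and all 18 genes at an unadjusted p under 0.05 were lower, against 11.4% of rows above the receptor level that were lower at this p. Over all rows 51.6% were below 0, and among the brighter rows above the receptor level 64.1%, with a median of −0.043. All 3 SIRT6 KD arrays were below all 3 WT arrays for 22 genes and above them for 0. That compares with 9.8% of all 22180 genes below and 6.16% above, and with 16% below among genes above the receptor level. At 0 hr the counts were 5 below and 4 above (all genes 6.76% and 5.64%), and at 20 hr 11 and 3 (6.26% and 5.41%). The size of the shift at 40 hr depended on the scaling. After cyclic loess, which removes differences that depend on signal level, the median was −0.052. Then 54 of 71 genes were below 0, beside 49.4% of the brighter rows, and 13 had all SIRT6 KD arrays lower. The share of all genes with all SIRT6 KD arrays lower was not computed after cyclic loess, so the 13 have no share beside them. Leaving out 1 array of either group gave 57 to 66 genes below 0.

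**Figure D4:**
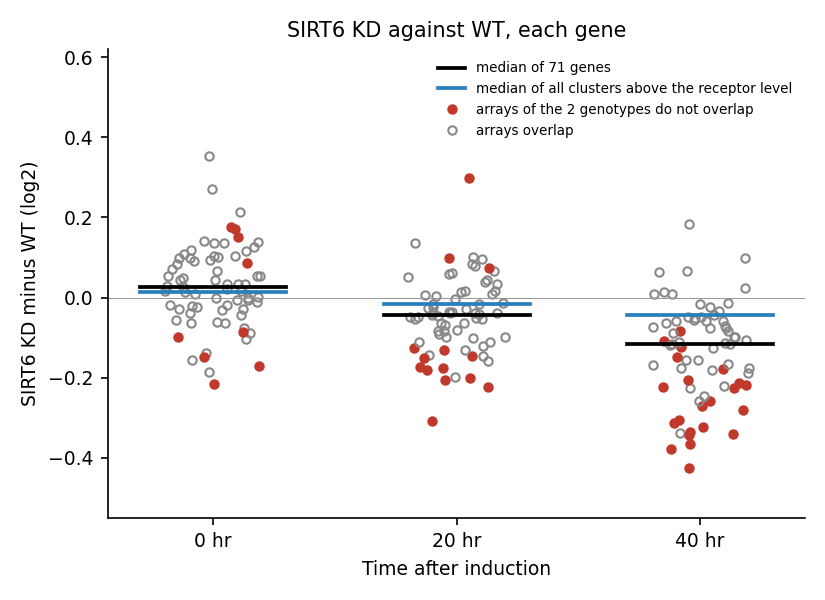
SIRT6 KD minus WT (log2, y) at 0, 20 and 40 hr (x) for each of the 71 genes; filled red points are genes whose 3 arrays of each genotype do not overlap, open points overlap, the black bar is the median of the 71 genes and the blue bar that of all rows above the receptor level. The black bar moves from 0.03 to −0.04 and −0.12, and the blue bar at 40 hr is at −0.043.

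The lowest values at 40 hr belonged to Mrps23, Mrpl37, Mrpl14 and Mrpl23. For Mrps23, the 3 SIRT6 KD arrays (7.67, 7.41 and 7.41) lay under the 3 WT arrays (7.89, 7.93 and 7.94), a difference of −0.43 (SE 0.11, adjusted p = 0.132). Mrpl37, a large subunit protein with no bacterial relative, read 8.27, 7.99 and 8.07 against 8.47, 8.63 and 8.37 (−0.38, adjusted p = 0.121). Mrpl14, related to a bacterial protein of the subunit interface, read 7.81, 7.87 and 8.18 against 8.38, 8.30 and 8.28 (−0.37, adjusted p = 0.141). Mrpl23 gave −0.34 (adjusted p = 0.232). These 4 genes had no overlap between the genotypes, and none passed the test over all rows. Where only the 12563 rows above the receptor level were tested, Mrpl21 and Mrpl37 were called lower, and 0.724% of those rows were. Mrpl21 differed by −0.31 (SE 0.075), with 9.48, 9.41 and 9.32 in SIRT6 KD against 9.68, 9.82 and 9.65 in WT cells.

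At the earlier times the differences without overlap were smaller. At 0 hr Mrps7 (−0.22), Mrpl40 (−0.17), Mrpl12 (−0.15) and Mrpl3 (−0.10) were lower on every SIRT6 KD array, and Mrps14 (0.18), Mrpl36 (0.17), Mrps10 (0.15) and Mrpl57 (0.09) were higher. At 20 hr the lowest were Mrpl52 (−0.31), Mrpl12 (−0.22), Mrps7 (−0.21) and Mrpl37 (−0.20), and Mrpl46 (0.30), Mrpl3 (0.10) and Mrpl18 (0.07) were higher. Mrps7, a small subunit protein that binds ribosomal RNA, lay lower on all SIRT6 KD arrays at 0 and 20 hr. At 40 hr its difference was −0.15, and the highest SIRT6 KD and the lowest WT array both read 8.09. Limma's test called Mrps7 at none of these times.

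Whether the change after induction differed between genotypes was tested as an interaction. No gene was called by limma's test, with 0 of 71 at 20 hr and 0 of 71 at 40 hr (0% of all rows in both). The signed change from 0 hr was lower in SIRT6 KD than in WT cells, that is less positive or more negative, for 53 of 71 genes at 20 hr and for 59 at 40 hr, with median differences of −0.07 and −0.13. At an unadjusted p under 0.05, 3 genes at 20 hr and 19 at 40 hr had a lower interaction and 0 a higher one, beside 2.18% and 5.09% of all rows lower (2.63% and 8.39% of rows above the receptor level). The 3 genes at 20 hr are near that share. Among rows above the receptor level, 59.6% were below 0 at 20 hr and 64% at 40 hr, with medians of −0.032 and −0.061. After cyclic loess the counts were 48 and 49 of 71 and the medians −0.034 and −0.092. Of rows above the receptor level, 52.8% and 52.2% were then below 0. Of 41 genes called higher in WT cells at 40 hr, 18 were also called in SIRT6 KD cells, and 1 was called in SIRT6 KD cells alone. At 20 hr, 36 were called in both, 8 in WT and 3 in SIRT6 KD cells alone. The largest interaction was that of Mrpl20 (−0.51 at 20 hr and −0.69 at 40 hr, adjusted p = 0.936 and 0.394), whose 0 hr signal was 0.35 higher in SIRT6 KD cells. Its WT signals at 0 hr were below the receptor level. Mrpl32 followed at 40 hr (−0.54, adjusted p = 0.363), then Mrps23 (−0.52, adjusted p = 0.394), and Mrpl46 had the highest value at 20 hr (0.36, adjusted p = 0.936).

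**Figure D5:**
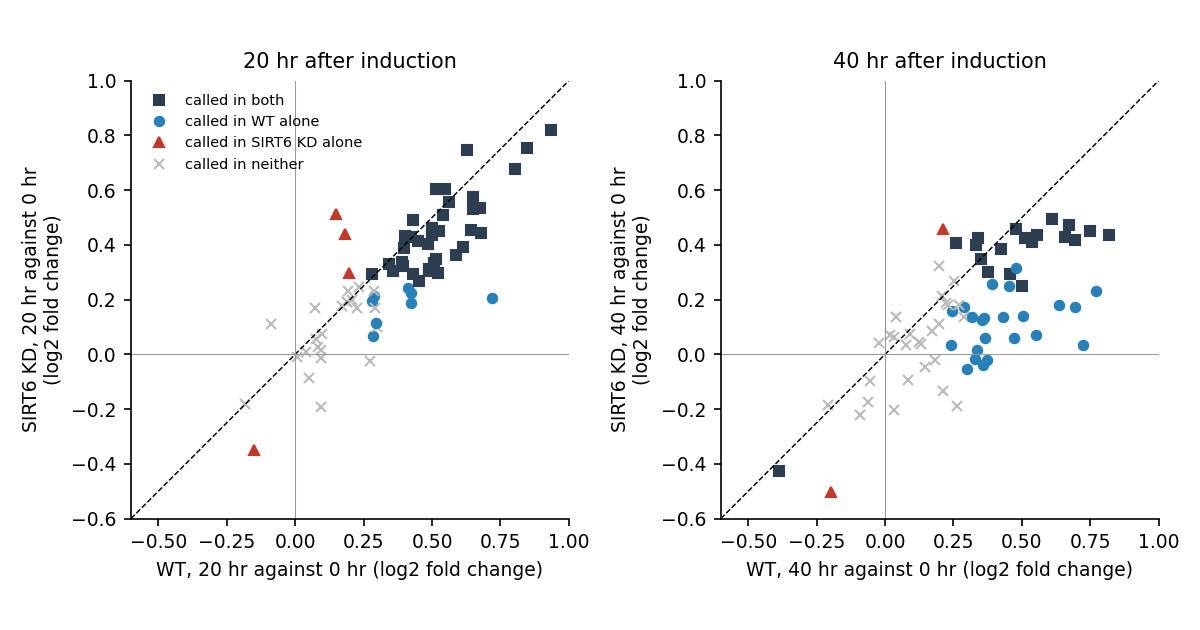
Log2 fold change against 0 hr in SIRT6 KD cells (y) against that in WT cells (x) for the 71 genes at 20 hr (left) and 40 hr (right); the dashed line marks equal change and symbols show in which genotype the change passed the test. At 40 hr 59 of 71 genes lie below the line, and 23 genes were called higher in WT cells alone.

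The partners of the mitochondrial ribosome were followed in the same way. Of the subunits known by other symbols, Dap3, a GTP-binding protein of the small subunit, rose by 0.32 in WT cells at 20 hr (adjusted p = 0.0066) and by 0.25 in SIRT6 KD cells (adjusted p = 0.0317). Ptcd3, a small subunit protein with RNA-binding repeats, rose by 0.49 and 0.38 (adjusted p = 1.37e-04 and 0.00176). Both stayed higher at 40 hr in both genotypes (Dap3 0.33 and 0.27, Ptcd3 0.56 and 0.42). Gadd45gip1, another large subunit protein, changed by 0.10 in WT and 0.19 in SIRT6 KD cells at 20 hr and did not pass the test. Of 27 assembly factors, 9 (33.3%) rose in WT cells at 20 hr and 0 fell, beside 24.7% of rows above the receptor level that rose. Of the same factors in SIRT6 KD cells, 7 (25.9%) rose at 20 hr, and 5 (18.5%) rose and 1 fell at 40 hr, near the 21.4% and 15.6% of such rows. Noa1, a GTPase of the small subunit's assembly, rose by 0.50 and 0.78 in WT cells and by 0.58 and 0.83 in SIRT6 KD cells at 20 and 40 hr. Mettl15, which methylates the small ribosomal RNA, rose by 0.84 in WT cells (adjusted p = 2.14e-07) and by 0.42 in SIRT6 KD cells (adjusted p = 6.03e-04) at 20 hr only.

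In WT cells at 20 hr, 4 of 14 translation factors (28.6%) and 9 of 19 mitochondrial aminoacyl-tRNA synthetases (47.4%) rose and none fell, beside 24.7% of rows above the receptor level that rose. Tufm, the mitochondrial elongation factor that delivers aminoacyl-tRNA, rose by 0.55 and 0.61 in WT and by 0.42 and 0.35 in SIRT6 KD cells at 20 and 40 hr. Nars2, the asparaginyl-tRNA synthetase, rose by 0.72 in WT and 0.45 in SIRT6 KD cells at 40 hr (adjusted p = 2.93e-05 and 0.00317). Among 20 genes of mitochondrial DNA and RNA synthesis and processing, 11 (55%) rose and 1 fell in WT cells at 20 hr. In SIRT6 KD cells at 40 hr, 6 (30%) rose and 1 fell, beside 15.6% of rows above the receptor level that rose. Elac2, which cleaves the 3′ ends of precursor tRNAs, rose by 1.18 and 1.54 in WT and by 0.94 and 1.25 in SIRT6 KD cells. Pnpt1, a polynucleotide phosphorylase, fell by 0.34 and 0.47 in WT cells (adjusted p = 0.0235 and 0.0025).

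Of 12 regulators of mitochondrial genes, 4 (33.3%) rose and 1 (8.33%) fell in WT cells at each time. Among rows above the receptor level 24.7% rose at 20 hr and 21.1% at 40 hr. Of all rows 11.7% and 10.6% were lower. Myc, a growth-promoting transcription factor, rose by 1.24 and 1.53 in WT and by 1.08 and 1.56 in SIRT6 KD cells. Nrf1 rose by 0.44 and 0.43 at 20 hr (adjusted p = 4.94e-04 and 6.55e-04), and at 40 hr its changes were 0.13 and −0.02. Gabpa, the DNA-binding subunit of GABP, changed by 0.01 and 0.03 at 20 hr and fell by 0.21 in both genotypes at 40 hr (adjusted p = 0.0243 and 0.0219). The coactivator Ppargc1a fell by 0.72 in WT and by 1.21 in SIRT6 KD cells at 20 hr, and its relative Ppargc1b rose by 1.04 and 0.89 at 40 hr.

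The same comparisons were made for the respiratory chain and for the cytosolic ribosome. Of 75 oxidative phosphorylation subunit genes, 32 and 28 rose in WT cells at 20 and 40 hr and 19 and 10 in SIRT6 KD cells, with medians of 0.21, 0.20, 0.15 and 0.08. Of 57 cytosolic ribosomal protein genes, 11, 17, 13 and 7 rose in the same order (19.3%, 29.8%, 22.8% and 12.3%). Their medians were 0.11, 0.18, 0.08 and 0.08. Among rows above the receptor level 24.7%, 21.1%, 21.4% and 15.6% rose. The counts of both sets in SIRT6 KD cells were near these shares. At 40 hr, 66 of 75 and 50 of 57 of these genes had a lower mean in SIRT6 KD than in WT cells, both with a median of −0.09, beside 63 of 71 and −0.12 for the mitochondrial ribosomal protein genes. Ndufa11, an accessory subunit of complex I, was the 1 gene of the 3 sets called lower at 40 hr (−0.53, adjusted p = 0.0161). The sets' differences were not tested.

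Of the 71 genes, 9 had a second row, and the rows did not always give the same call. Mrpl12, which also binds the mitochondrial RNA polymerase, had rows of nearly equal mean signal, 7.65 and 7.63. The first changed by 0.29 in WT and 0.21 in SIRT6 KD cells at 20 hr (adjusted p = 0.0204 and 0.0917), and the second by 0.60 and 0.62 (adjusted p = 6.85e-05 and 5.03e-05). Mrpl47 was called in SIRT6 KD cells at 20 hr on its second row (0.66, adjusted p = 0.0201) and not on its first (0.24, adjusted p = 0.165), and in WT cells at 40 hr on its first alone (adjusted p = 0.0426 and 0.217). Mrps16 was called in WT cells at 20 hr on its second row alone (0.34 against 0.30, adjusted p = 0.0249 and 0.226). Mrps5 in SIRT6 KD cells at 20 hr (0.32 and 0.28, adjusted p = 0.0206 and 0.0721) and Mrps17 at 40 hr (0.46 and 0.16, adjusted p = 5.42e-04 and 0.362) were called on the first row alone. The 2 rows of Mrpl10 and of Mrps18c differed in sign for changes that did not pass the test, such as −0.02 and 0.06 for Mrpl10 in WT cells at 40 hr. A row may detect a near-identical copy of a gene elsewhere in the genome, so values of genes with 2 rows are uncertain to that extent.

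Of the 7 genes left out for sharing their rows, Mrpl41 (with Dph7) changed by 0.69 and Mrpl43 (with Twnk) by 0.68 in WT cells at 20 hr, and Mrps6 (with Slc5a3) by 0.02. The signal of such a row cannot be divided between its genes.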

How the data were processed

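RNA of 18 samples was hybridized to Affymetrix Mouse Gene 2.0 ST arrays, according to the study's methods, with 3 arrays in each of 6 groups (genotype by time). The values deposited by the authors were log2 signals made with the robust multi-array average method (RMA), which corrects background, equalizes the distribution of signals between arrays and summarizes probes to 1 value per transcript cluster. Equal distributions remove any change common to most genes, so values are relative to the other genes of an array. The RMA version and the genome build are not given in the sources used here. The number of arrays limits the precision. Microarray signals have no read depth.

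The table held 41345 clusters, called rows in the text. Gene names came from GEO's platform annotation. Of these rows, 16004 had no symbol and 1820 had several, and the 23521 with exactly 1 symbol, for 22180 genes, were tested. One fit with a mean for each of the 6 groups was made with limma 3.58.1 in R 4.3.3 (lmFit and eBayes, 12 residual degrees of freedom), with Benjamini-Hochberg adjustment over all rows tested in a comparison. The receptor level was the 95th percentile of the means of 1400 olfactory and vomeronasal receptor rows, and 53.4% of rows lay above it. Comparisons of 20 and 40 hr with 0 hr share the 0 hr arrays, and neighbouring comparisons share other groups. The fit was tested on simulated data.

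The genes and gene lists were chosen with earlier results of these data known. Genes were named by rule: in each genotype up to 8 of the largest called rises and falls without overlap of arrays, at each time the 4 highest and 4 lowest differences between genotypes without overlap, the 2 highest and 2 lowest interactions, genes whose rows disagree, the brightest and the dimmest gene, the Mrps18 paralogs, Mrpl12, Mrps36, Sirt6, and up to 4 called genes of each list. Values named outside it (shared rows, partners at shared starts, Mrpl21, the rises of Mrpl16 and Mrpl36, and the interaction of Mrps23) were chosen after they were seen. Promoters and opposite-strand starts came from RefSeq tables of build GRCm38.p6. No promoter was found in them for 9 genes.

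Alternatives were other normalizations, filters, priors, thresholds and sets of rows or samples, the analysis of variance that the methods name, replicate numbers as a block, and leaving out each array. Same-numbered samples were not visibly more alike than others. Deviations from the group means correlated at a median of −0.03 (−0.32 to 0.27) over 45 same-numbered pairs and 0.01 (−0.29 to 0.39) over 90 others. The labels do not say whether replicate numbers pair samples, and such deviations cannot settle it.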

Additional observations from a re-analysis of the deposited data

Results flagged for a closer look

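These genes had all 3 SIRT6 KD arrays on one side of all 3 WT arrays at one time and on the other side at another. The share of all genes that changed sides in this way was not computed, so these genes cannot be set beside it. Of all 22180 genes, 5.64% were higher and 6.76% lower without overlap at 0 hr. At 20 hr these shares were 5.41% and 6.26%, and at 40 hr 6.16% and 9.8%. Mrpl36 was higher in SIRT6 KD cells by 0.17 at 0 hr and lower by 0.28 at 40 hr, a difference of −0.45 (interaction adjusted p = 0.394, limma). Mrps10 went from 0.15 to −0.26 (−0.41, adjusted p = 0.363) and Mrpl57 from 0.09 to −0.21 (−0.30, adjusted p = 0.474). Mrpl3 went from −0.10 at 0 hr to 0.10 at 20 hr (0.20, adjusted p = 0.936). Seen as changes after induction, Mrpl3 was at −0.09 in WT and 0.11 in SIRT6 KD cells at 20 hr, with no overlap of arrays in either genotype, which is the same interaction of 0.20. Mrpl18 went from 0.07 at 20 hr to −0.18 at 40 hr (−0.25), a difference that was not tested. None of the tested differences passed the threshold.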

How the results depend on the processing

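Rises after induction kept their counts within 1.5 times the stated ones under all settings but 1, a fold above 1.5, which left 12 and 10 genes in WT and 6 and 0 in SIRT6 KD cells at 20 and 40 hr. The median rise in WT cells was 0.448 with median centring and 0.309 with cyclic loess at 20 hr, and 0.251 with cyclic loess at 40 hr. The median difference between genotypes at 40 hr was −0.052 with cyclic loess. Counts near the threshold moved. The 2 genes called lower in WT cells from 20 to 40 hr were 1 by the methods' analysis of variance, over all clusters of the table, with replicate numbers as a block or at an adjusted p under 0.01, 4 above the receptor level or with array weights, and 0 at a fold above 1.5. The 9 in SIRT6 KD cells were 14 with a trended and robust prior, 17 above the receptor level, 2 with the compared groups only or at an adjusted p under 0.01, and 1 at a fold above 1.5. Between genotypes at 40 hr, 1 gene (Mrpl21, with 0.438% of all rows lower) was called with the trended and robust prior and 2 above the receptor level. The replicate block gave 44 and 40 rises in WT and 37 and 19 in SIRT6 KD cells, and 8 falls in SIRT6 KD cells from 20 to 40 hr, and it called 0 genes between genotypes.

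Leaving out each array gave 40 to 44 and 32 to 42 rises in WT and 30 to 39 and 14 to 22 in SIRT6 KD cells at 20 and 40 hr, with medians of 0.346 to 0.406, 0.269 to 0.351, 0.246 to 0.326 and 0.089 to 0.190. From 20 to 40 hr it gave 1 to 2 falls in WT (1 without any of the 20 hr arrays, or without replicate 1 or 3 at 40 hr) and 2 to 11 in SIRT6 KD cells, with medians of −0.079 to −0.009 and −0.178 to −0.095. Genotype differences at 0, 20 and 40 hr had medians of 0.013 to 0.059, −0.097 to −0.006 and −0.150 to −0.099, and interactions −0.112 to −0.031 and −0.181 to −0.099, with 0 calls. Of 600 values of single named genes, 588 kept direction and call, 12 lost a call, all of Mrpl54, and 0 changed sign when called. The causes were not tested. Signals near the receptor level, such as those of Mrps14 and Mrps36 and those of Mrpl20 at 0 hr, limit what can be measured for these genes.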
